A study of Mus musculus with 5 samples.

Results

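Fatty acid oxidation and peroxisome genes were followed through ureteric obstruction and its reversal in mouse kidney tubule cells. They are 35 genes listed by symbol out of 28692 gene identifiers in the droplet count files, and all 35 were found there once. By role they are the carnitine shuttle (Cpt1a, Cpt2, Slc25a20, Crat), the acyl-CoA dehydrogenases (Acadvl, Acadl, Acadm, Acads), the electron transfer proteins (Etfa, Etfb, Etfdh) and the mitochondrial oxidation spiral (Hadha, Hadhb, Hadh, Echs1, Acaa2). The others are the auxiliary enzymes for unsaturated chains (Eci1, Eci2, Decr1, Ech1), the peroxisomal genes (Ehhadh, Hsd17b4, Acaa1a, Acaa1b, Scp2, Slc27a2, Pex11a), the enzymes that join or release coenzyme A (Acsl1, Acsm2, Acsm3, Acss1, Acot2) and the regulators Ppara, Ppargc1a and Pdk4.

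Kidney tubule cells, and proximal tubule cells above all, draw much of their energy from fatty acids. Long chains are joined to coenzyme A, carried into mitochondria by the carnitine shuttle and shortened in repeated cycles whose electrons pass through the electron transfer flavoprotein to the respiratory chain, while peroxisomes shorten very long and branched chains. Ppara encodes a nuclear receptor that responds to fatty acids, Ppargc1a encodes a coactivator of mitochondrial genes, and Pdk4 encodes a kinase that restrains the use of glucose.

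The cells came from C57/BL6 mice, 8 weeks old, whose kidneys were digested on ice and whose live cells were sorted with the viability dye DAPI. The 4 droplet libraries were sham surgery (day 0), UUO (unilateral ureteric obstruction, a block of urine flow from 1 kidney) at day 2 and at day 7, and reversed UUO, collected 7 days after the blockage was removed, on day 14. Every condition had 1 library, made from the pooled cells of 3 mice. No test between conditions was therefore possible, and every interval below is a 95% interval that covers counting error alone, not differences between mice. A mixed full-length sample of the series was not used here.

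Levels are in CPM, the UMIs (tagged molecules) of a gene summed over all cells of a gate and scaled to a total of 1000000 UMIs of nuclear genes. A gate is the set of cells whose highest marker level belongs to a class fixed by marker genes, none of them a member. The proximal tubule gate held 2979 sham, 547 day 2, 188 day 7 and 1095 reversed cells with between 1021089 and 6375642 nuclear UMIs per library. The other tubule gate, which joins loop of Henle, distal convoluted tubule, principal and intercalated cells, held 337, 508, 457 and 460 cells with between 1085435 and 4013667 nuclear UMIs. All 15 proximal tubule markers and all 12 proximal tubule genes of a check list not used by the gate were detected in the proximal tubule gate of each library. The summed level of those gate markers was nevertheless 24495 CPM in sham, 12053 at day 2, 10520 at day 7 and 21229 after reversal. The check list summed to 26029, 9320, 27315 and 24434 CPM, so its sum was low at day 2 alone. That sum leans on its highest gene, at 14843, 4286, 20003 and 15247 CPM in the same order. The lowest gene of the check list stood at 214, 53.1, 50.9 and 231 CPM, low at day 7 as well. The lowest distal convoluted marker stood at 3.19 CPM on day 2 and 1.77 on day 7 in the distal convoluted gate, against 79.8 in sham, so that gate is not described alone. Median depth differed between the libraries, with 1698, 3338, 4154 and 3109 nuclear UMIs per proximal tubule cell and 2814, 7347, 7520 and 5474 per other tubule cell, in the order sham, day 2, day 7 and reversed. The median share of mitochondrially encoded UMIs was 34.8, 24.3, 20.5 and 31.3% in the proximal tubule gate and 35, 16.9, 9.35 and 17.9% in the other tubule gate. Summed phagocyte markers stood at 236, 1621, 6812 and 2648 CPM in the proximal tubule gate and at 176, 922, 4292 and 1717 CPM in the other tubule gate, and their part in the results was not tested. Any pair of libraries shared between 16 and 39 cell barcodes.

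In the proximal tubule gate a few enzymes that join acids to coenzyme A and the thiolase Acaa2 stood at least 2-fold below sham during obstruction, while most members, like most genes, lay within 2-fold. Of the 34 members past a filter of a mean of 10 CPM (Pdk4 was not), 4 were lower than sham by 2-fold or more at day 2 and 0 were higher. Among all 7898 genes past the filter, 2.34% were lower and 6% higher in that comparison. At day 7, 3 members were lower and 3 higher, against 3.48% and 13.5% of all genes. After reversal 0 were lower and 0 higher, against 0.139% and 5.48%. The members' median log2 ratio was -0.16 at day 2, -0.11 at day 7 and -0.11 after reversal, beside 0.06, 0.19 and 0.12 over all genes. From day 2 to day 7, 4 members were higher and 1 lower by 2-fold, against 6.27% and 1.79% of all genes. From day 7 to the reversed library 4 were higher (Acaa2, Acss1, Acsm2 and Acsl1) and 1 lower (Slc25a20), against 2.44% and 4.2%. The first 3 comparisons share the sham library. The split at day 7 depended on the scaling, and so did the shares of all genes. It was 5 lower and 0 higher under TMM factors, against 9.1% and 7.65% of all genes. Under DESeq2 size factors it was 6 and 0, against 9.23% and 7.61%, and with CPM of all UMIs 2 and 4, against 1.77% and 20.4%.

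**Figure D1:**
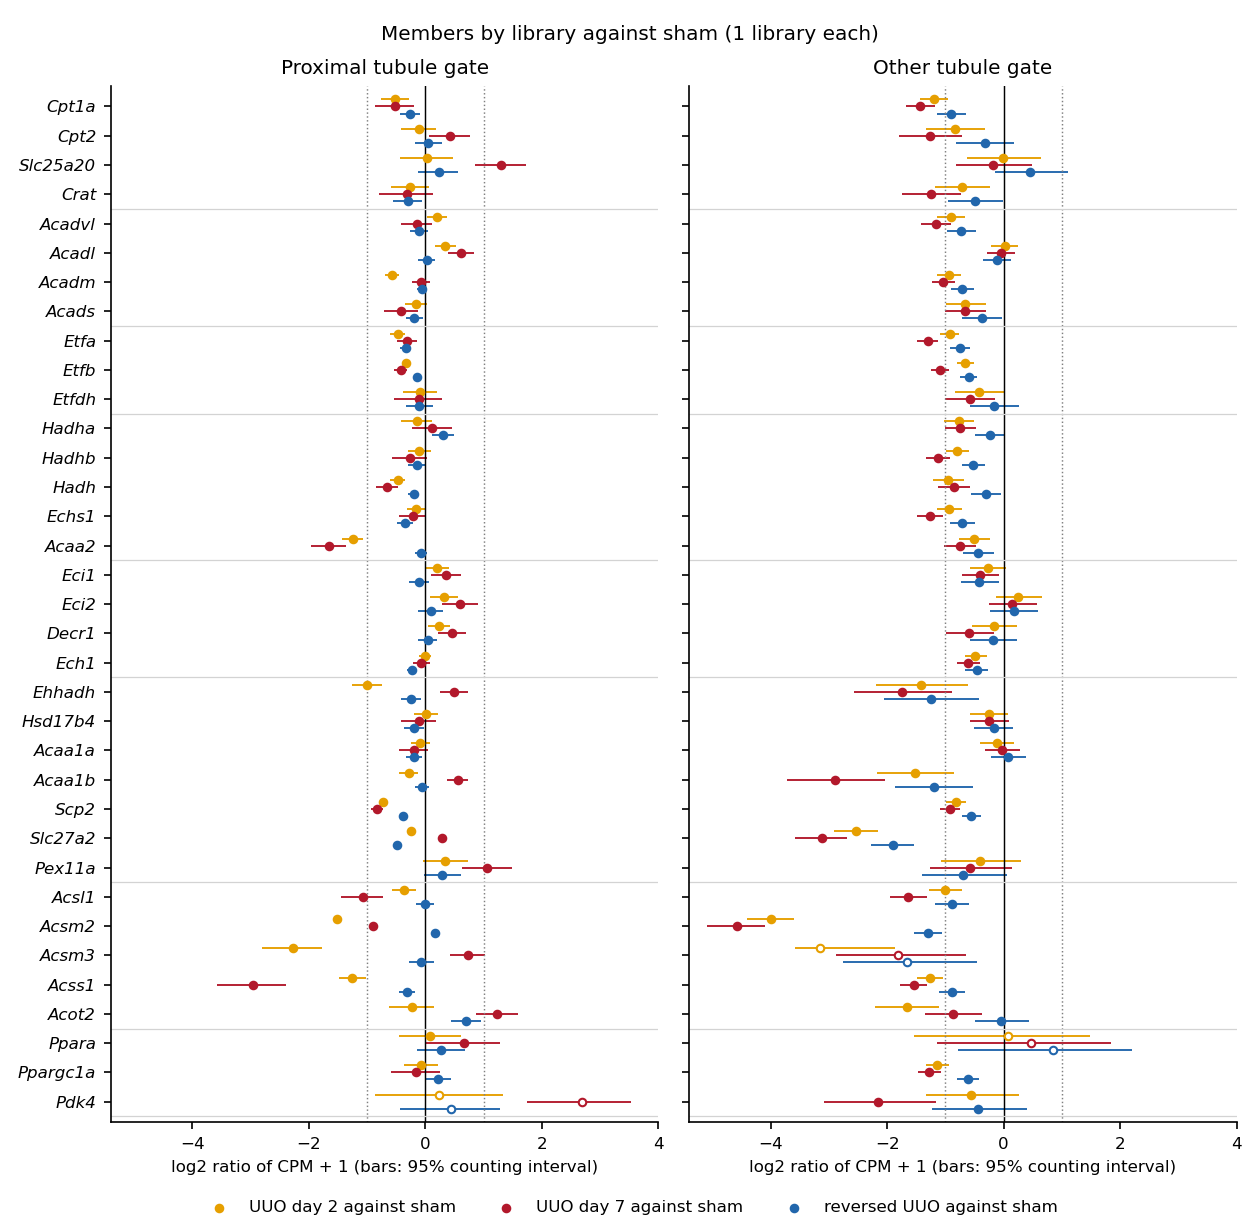
Log2 ratio of CPM + 1 against sham for each of the 35 members (rows, grouped by role) in the proximal tubule gate (left) and the other tubule gate (right), with 95% counting intervals; open points are members under the filter of 10 CPM and dotted lines mark 2-fold. At day 7, 3 of the 34 members past the filter lie past 2-fold below sham on the left and 17 of 33 on the right.

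The differences of 2-fold or more below sham in the proximal tubule gate were in the synthetases and in Acaa2. Acss1, which makes acetyl-CoA from acetate in mitochondria, stood at 190 CPM in sham, 79.0 at day 2, 23.5 at day 7 and 153 after reversal. Day 7 was the lowest library and the reversed library lay close to sham. The log2 ratio to sham was -1.25 (-1.48 to -1.03) at day 2, -2.96 (-3.58 to -2.40) at day 7 and -0.31 (-0.44 to -0.17) after reversal. Acaa2, a mitochondrial thiolase, stood at 296, 124, 93.0 and 280 CPM in the same order. Both obstructed libraries were low and the reversed library lay near sham. Its log2 ratio was -1.25 (-1.43 to -1.07) at day 2, -1.66 (-1.97 to -1.37) at day 7 and -0.08 (-0.18 to 0.02) after reversal.

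Acsm2, a medium-chain acyl-CoA synthetase of the proximal tubule, stood at 3201 CPM in sham, 1114 at day 2, 1723 at day 7 and 3596 after reversal. It was lowest at day 2, already higher at day 7, and highest in the reversed library. Its log2 ratio to sham was -1.52 (-1.58 to -1.46), -0.89 (-0.96 to -0.82) and 0.17 (0.14 to 0.20). Acsl1, which activates long-chain fatty acids, stood at 141, 109, 66.6 and 140 CPM and passed 2-fold at day 7 with a log2 ratio of -1.07 (-1.44 to -0.72), a call that was lost under 5 of 11 alternatives with ratios up to -0.74. Acsm3, of the same family as Acsm2, stood at 70.0, 13.6, 117 and 66.6 CPM, low at day 2 alone. Acsm2 and Acsm3 lie near each other on chromosome 7 (GRCm38, chr7:119554340-119600690 and chr7:119760923-119787513, both plus strand).

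The other oxidation enzymes of the mitochondrion stayed closer to sham in the proximal tubule gate. Acadm, the medium-chain dehydrogenase, stood at 418, 280, 399 and 400 CPM, with a log2 ratio of -0.57 at day 2 and values near sham in the other libraries. Acadl, the long-chain dehydrogenase, stood at 131, 166, 201 and 133 CPM, highest at day 7. Hadha and Hadhb, the subunits of the trifunctional protein, spanned 68.9 to 94.8 and 106 to 127 CPM over the 4 libraries, with neither past 2-fold in any comparison. Etfa spanned 277 to 385 CPM and Etfb 754 to 1011, with sham the highest for both. The auxiliary enzymes Eci1, Eci2 and Decr1 were each highest at day 7, with log2 ratios to sham of 0.35, 0.59 and 0.46, none past 2-fold.

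In the carnitine shuttle, Cpt1a, the outer membrane transferase that controls entry, stood at 112, 77.7, 77.4 and 92.8 CPM. Slc25a20, which carries acylcarnitine across the inner membrane, stood at 23.2, 23.7, 58.8 and 27.3 CPM, so only day 7 was high. Its log2 ratio there was 1.30 (0.86 to 1.73), and 0.96 at the lowest over the alternatives. Acot2, a mitochondrial acyl-CoA thioesterase, stood at 36.1, 30.7, 86.2 and 59.4 CPM, also highest at day 7, with a log2 ratio of 1.23 (0.87 to 1.59). Acot2 has paralogs next to it in the genome, and how reads were shared between them was not tested. Pex11a, a gene of peroxisome division, stood at 27.1, 34.7, 57.8 and 33.4 CPM, and its log2 ratio of 1.06 (0.62 to 1.49) at day 7 ranged from 0.40 to 1.33 over the alternatives. Pdk4 stood at 1.73, 2.20, 16.6 and 2.71 CPM, from 11, 5, 17 and 12 UMIs, so its day 7 log2 ratio of 2.70 (1.75 to 3.53) rests on few molecules. In the other tubule gate it was instead lowest at day 7.

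The peroxisomal members differed among themselves. Scp2, which encodes a peroxisomal thiolase and a sterol carrier, stood at 1466, 890, 823 and 1127 CPM, low in both obstructed libraries but short of 2-fold at -0.72 and -0.83 log2 units. Slc27a2, a fatty acid transporter and very-long-chain acyl-CoA synthetase, stood at 1401, 1178, 1705 and 994 CPM, with day 7 the highest and the reversed library the lowest. Ehhadh, the peroxisomal bifunctional enzyme, stood at 123, 61.0, 174 and 103 CPM, lowest at day 2, just inside 2-fold with an interval of -1.27 to -0.74, and highest at day 7. Hsd17b4 and Acaa1a spanned 96.2 to 111 and 154 to 177 CPM. Acaa1b stood at 216, 177, 317 and 207 CPM, and it and Acaa1a are near-identical thiolase genes between which reads can be split. Ppara spanned 15.7 to 25.5 CPM and Ppargc1a 52.9 to 68.6 CPM, neither past 2-fold.

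**Figure D2:**
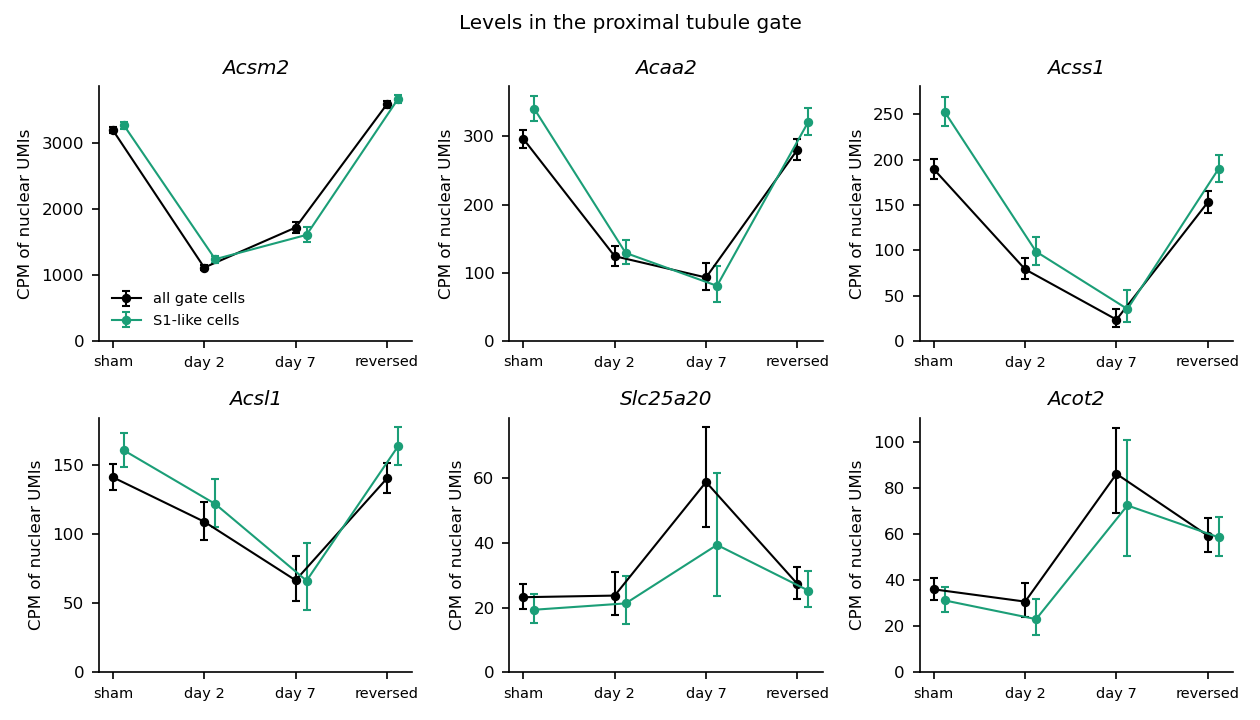
CPM of nuclear UMIs of 6 members in each library, for all cells of the proximal tubule gate (black) and for its S1-like cells (green), with 95% Poisson intervals. Acsm2, Acaa2, Acss1 and Acsl1 are lower in both obstructed libraries than in sham, and Slc25a20 and Acot2 are highest at day 7.

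Counted over cells rather than molecules, the direction was the same for Acaa2 and Acss1. With each cell thinned to 500 nuclear UMIs, which left out 0 cells, a UMI of Acaa2 was found in 13.3% of proximal tubule cells in sham (12.1 to 14.5, exact binomial), 6.03% at day 2 (4.19 to 8.37), 4.79% at day 7 (2.21 to 8.89) and 12.6% after reversal (10.7 to 14.7). In endothelial cells thinned to the same depth the shares were 4.57, 5.47, 4.84 and 7.65%. The day 2 and day 7 shares of the proximal tubule gate lay within the range of the endothelial shares, and how much of the endothelial share is free RNA was not tested. For Acss1 the shares were 8.59, 3.84, 2.13 and 8.04% in the proximal tubule gate and 1.02, 0.781, 0.484 and 0.612% in endothelium. Before thinning, Acaa2 was found in 41.7, 34.4, 35.6 and 57.5% of proximal tubule cells and Acss1 in 28.0, 22.5, 9.57 and 38.2%. Endothelial cells had medians of 2227, 3520, 3312 and 3663 nuclear UMIs.

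Several members differed by segment of the proximal tubule. Cells of the gate were called S1-like or S3-like where at least 2 UMIs came from the markers of the early convoluted or of the late straight segment and more than from the other list. S3-like cells made up 15.7% of the called cells in sham (14.1 to 17.4), 2.16% at day 2 (0.938 to 4.22, from 8 cells), 41.3% at day 7 (32.6 to 50.4) and 14.1% after reversal (11.9 to 16.5). In sham, 10 of the 34 members past the filter were higher in S3-like cells by 2-fold or more and 2 were lower, against 4.79% and 5.46% of all 7139 genes. The members' median log2 ratio was 0.55 and that of all genes -0.002.

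Members past 2-fold higher in S3-like cells came from several roles. Slc27a2 stood at 3276 CPM in S3-like and 969 in S1-like sham cells, a log2 ratio of 1.76 (1.69 to 1.83). Ehhadh stood at 335 against 77.1 CPM and Acaa1b at 505 against 133 CPM. Acsm3 stood at 289 against 15.4 CPM, a log2 ratio of 4.14 (3.75 to 4.55). Acadl, Acadm, Cpt2, Eci2, Ech1 and Pex11a were the others past 2-fold. Acss1 went the other way with 21.2 CPM in S3-like and 253 in S1-like cells, as did Acaa2 with 146 against 340. After reversal 6 members were higher and 3 lower in S3-like cells, against 4.51% and 5.6% of all genes. There, Slc27a2, Ehhadh, Acaa1b and Acsm3 were again among the higher and Acss1 and Acaa2 among the lower. At day 7, 12 were higher and 1 lower, against 7.56% and 14.1%. At day 2, 8 were higher and 3 lower, against 19.1% and 14.5%, from 8 S3-like cells.

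**Figure D3:**
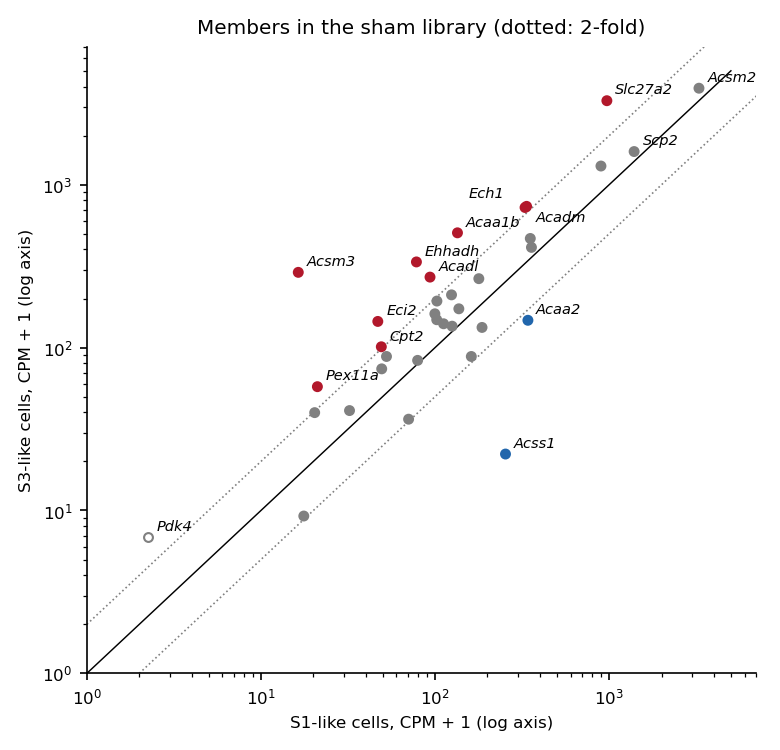
Members in the sham library by their CPM + 1 in S1-like cells (horizontal, log axis) and S3-like cells (vertical, log axis), with red and blue for members past 2-fold, grey for the rest and an open point for Pdk4, under the filter. Acsm3, Slc27a2, Ehhadh and Acaa1b lie above the upper dotted line and Acss1 and Acaa2 below the lower one.

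The S3-like share was highest at day 7, and so were the gate-wide values of Acsm3, Ehhadh, Slc27a2 and Acaa1b. Within S1-like cells alone, Ehhadh stood at 77.1, 46.3, 74.6 and 75.5 CPM and Acaa1b at 133, 122, 95.3 and 147 CPM, so neither was highest at day 7 there. In S3-like cells Ehhadh stood at 335, 191, 306 and 237 CPM, highest in sham, while Acaa1b stood at 505, 445, 626 and 417 CPM, highest at day 7. Slc27a2 stood at 969, 1093, 1023 and 714 CPM in S1-like and 3276, 2211, 2823 and 2294 CPM in S3-like cells. Acsm3 had 62, 4, 0 and 37 UMIs in S1-like cells, where 0 UMIs at day 7 allows up to 6.21 CPM if the limit is set at 3 UMIs and 7.64 CPM by the exact Poisson interval, and stood at 289, 47.7, 310 and 324 CPM in S3-like cells, with 3 UMIs at day 2. Acaa2 stood at 340, 129, 80.8 and 321 CPM in S1-like cells and Acss1 at 253, 98.6, 35.2 and 190 CPM, in the same order of libraries as in the whole gate. Acsm2 stood at 3277, 1242, 1611 and 3674 CPM in the same cells. In S3-like cells, where Acss1 was already low, Acsm2 stood at 3908, 1686, 2131 and 3705 CPM, and Acaa2 at 146, 143, 85.6 and 97.0 CPM.

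Over S1-like cells, 3 of 33 members were lower than sham by 2-fold or more at day 2 and 0 higher, beside 2.08% and 6.56% of all genes. At day 7 there were 5 lower (Acaa2, Acss1, Acsl1, Scp2 and Acsm2) and 1 higher (Acot2), beside 6.05% and 17.7%. After reversal there were 0 in either direction, beside 0.151% and 5.67%. From day 2 to day 7 there was 1 in each direction, beside 3.01% lower and 9.3% higher. From day 7 to the reversed library 0 were lower and 4 higher, beside 7.41% and 4.64%. Slc25a20 stood at 19.3, 21.3, 39.3 and 25.3 CPM and Pex11a at 20.1, 31.0, 29.0 and 30.7 CPM in S1-like cells. Neither was past 2-fold at day 7, with Slc25a20 just short at a log2 ratio of 0.99. In S3-like cells Slc25a20 stood at 38.9, 31.8, 82.4 and 34.6 CPM, highest at day 7 too. Pex11a stood there at 56.5, 159, 72.5 and 46.7 CPM, with 10 UMIs at day 2. The S1-like cells of day 7 numbered 74.

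Summed over all 35 members, the level in the proximal tubule gate was 11608 CPM in sham, 7692 at day 2, 9201 at day 7 and 10785 after reversal. Acsm2, Scp2 and Slc27a2 gave 52.3% of the sum in sham, and without them it was 5540, 4510, 4951 and 5067 CPM. In S1-like cells the sum was 10560, 7425, 6967 and 10148 CPM, and in S3-like cells 16291, 10961, 12824 and 13739 CPM. Both obstructed libraries were below sham in each. The median S1-like cell had 1.04, 0.720, 0.733 and 1.04% of its nuclear UMIs in the members, so day 2 and day 7 lay close together, and S3-like cells numbered 8 at day 2.

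**Figure D4:**
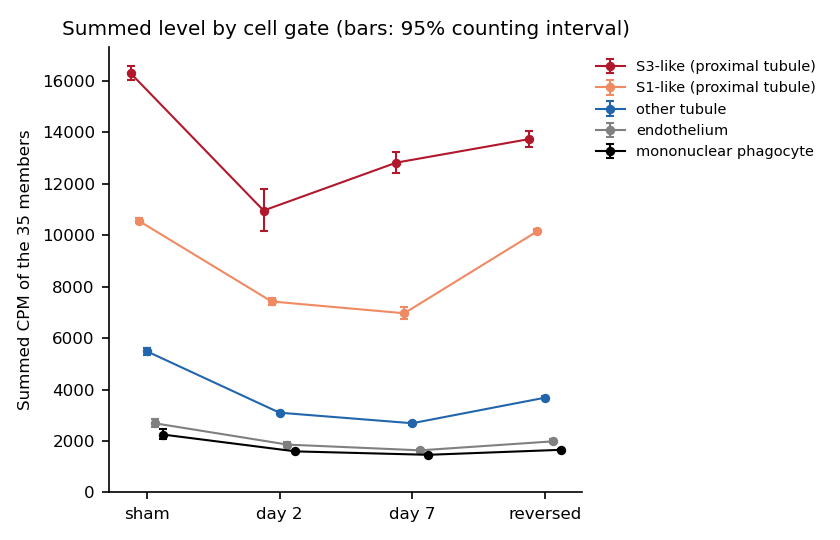
Summed CPM of the 35 members in each library for S1-like and S3-like proximal tubule cells, the other tubule gate, endothelium and mononuclear phagocytes, with 95% Poisson intervals. The S3-like sum is above the S1-like sum in each library, and the other tubule sum goes from 5488 CPM in sham to 2690 at day 7.

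Cells with UMIs of the injury markers Havcr1 or Krt20 numbered 4, 126, 52 and 21 in the proximal tubule gate, or 0.134, 23.0, 27.7 and 1.92%, beside 0, 5.34, 6.04 and 0.481% of phagocytes. They were deeper than the remaining gate cells in each library, with medians of 3746, 3871, 8006 and 5642 nuclear UMIs against 1698, 3157, 3422 and 3083. Their summed members stood at 13881 CPM against 11603 in the remaining gate cells in sham, from 4 cells with those markers. The values were 6829 CPM against 8059 at day 2, 7585 against 10410 at day 7 and 6416 against 10958 after reversal. Cells with fibrinogen UMIs numbered 219, 430, 105 and 217, or 7.35, 78.6, 55.9 and 19.8%, beside 0, 16.0, 5.74 and 2.40% of phagocytes. Their sums were 11284, 7579, 8505 and 10393 CPM against 11641, 8289, 10352 and 10936 in cells without. They were deeper too, with medians of 2212, 3629, 5495 and 4829 nuclear UMIs against 1657.5, 2531, 3469 and 2971.5.

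At day 7 more members were 2-fold below sham in the other tubule gate than in the proximal tubule gate. They came from 7 of the 8 roles. At day 2 the gates were closer with CPM of all UMIs, at 5 lower members here and 4 in the proximal tubule gate. Those counts stood beside 3.27% and 1.46% of all genes, and the difference between gates was not tested. The summed tubule markers of the other tubule gate also differed, at 39627 CPM in sham, 17008 at day 2, 11458 at day 7 and 18783 after reversal. Their part in the members' values was not tested. Of the 33 members past the filter (Acsm3 and Ppara were not), 9 were lower than sham by 2-fold or more at day 2 and 0 higher, against 6.42% and 4.88% of all 9064 genes. At day 7, 17 were lower and 0 higher, against 8.51% and 6.99%. After reversal 4 were lower (Acsm2, Slc27a2, Ehhadh and Acaa1b) and 0 higher, against 2.9% and 6.48%. The members' median log2 ratio was -0.80, -1.03 and -0.49, beside -0.16, -0.07 and 0.01 over all genes. From day 7 to the reversed library 4 members were higher by 2-fold and 0 lower, against 2.42% and 1.05%, with a members' median of 0.52. From day 2 to day 7, 2 were lower (Acaa1b and Pdk4) and 0 higher, against 1.2% and 2.48%. With CPM of all UMIs, day 7 against sham held 6 lower members, and 4.08% of all genes were lower. With cells of at most 20% mitochondrial UMIs, which left 53 of 337 sham cells, it held 8, and 9.93% of all genes were lower.

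The amount of proximal tubule RNA found in other cells differed between the libraries. The median level of the 12 proximal tubule check genes in the other tubule gate, as a share of their level in the proximal tubule gate, was 9.54% in sham, 1.90% at day 2, 1.02% at day 7 and 3.61% after reversal. It was 7.07, 1.89, 1.14 and 3.99% in endothelium. Acsm2 in the other tubule gate, at 242, 14.2, 9.15 and 98.2 CPM, followed that share, and stood at 172, 7.13, 11.4 and 107 CPM in endothelium. Values that fell below 0 when the carry-over was subtracted were set to 0. Acsm2 was then at 0 CPM in all 4 libraries and Slc27a2 at no more than 0.982 CPM, so no ratio is given for either. Acsm2, Slc27a2, Ehhadh and Acaa1b were then under the filter, which left 29 members. Of these, 5 were lower by 2-fold at day 2, 11 at day 7 and 0 after reversal, against 6.55%, 8.32% and 2.88% of all genes after the same subtraction. The 4 members lower after reversal without subtraction were the same 4 that left the filter. From day 7 to the reversed library the subtraction left 1 member higher by 2-fold (Pdk4) in place of 4, against 1.83% of all genes.

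The 11 members past both the filter and 2-fold at day 7 with carry-over subtracted were Cpt1a, Cpt2, Crat, Acadvl, Etfa, Hadhb, Echs1, Acsl1, Acss1, Ppargc1a and Pdk4. Others of the same roles were not, among them Slc25a20 (log2 ratio -0.21), Etfb (-0.98), Etfdh (-0.59) and Acaa2 (-0.60). Cpt1a stood at 211 CPM in sham, 91.9 at day 2, 77.7 at day 7 and 113 after reversal. All obstructed and reversed values were below sham, and day 7 was the lowest. The log2 ratio was -1.19 (-1.43 to -0.95), -1.43 (-1.68 to -1.17) and -0.90 (-1.14 to -0.65), and at day 7 -1.50 with carry-over subtracted and -0.79 in cells of at most 20% mitochondrial UMIs. Etfa, a subunit of the electron transfer flavoprotein, stood at 412, 216, 166 and 245 CPM, in the same order of libraries. Its log2 ratio at day 7 was -1.30 (-1.48 to -1.13). Acadvl, the very-long-chain dehydrogenase, stood at 199.9, 107, 88.8 and 120 CPM, Hadhb at 292, 167, 133 and 203 CPM and Echs1, the enoyl-CoA hydratase, at 253, 132, 105 and 155 CPM. Each was again highest in sham and lowest at day 7.

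Acsl1 stood at 149, 74.0, 47.3 and 80.4 CPM, with a log2 ratio at day 7 of -1.64 (-1.95 to -1.32) that stayed past 2-fold under all 12 alternatives computed for single members. Acss1 stood at 253, 105, 86.1 and 136 CPM, with a log2 ratio of -1.55 (-1.78 to -1.31). Its day 2 and day 7 levels lay closer together than in the proximal tubule gate, where they were 79.0 and 23.5 CPM. Crat and Cpt2 stood at 49.7, 29.9, 20.4 and 35.2 CPM and at 45.1, 24.9, 18.3 and 35.8 CPM. Pdk4 stood at 16.6, 11.0, 2.96 and 12.0 CPM, from 18, 44, 11 and 38 UMIs, lowest at day 7.

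Ppargc1a, the coactivator, stood at 333 CPM in sham, 151 at day 2, 137 at day 7 and 217 after reversal in the other tubule gate. It was lower in each later library, with log2 ratios of -1.14 (-1.33 to -0.95), -1.28 (-1.47 to -1.08) and -0.61 (-0.80 to -0.43). In the proximal tubule gate it stood at 59.0, 56.2, 52.9 and 68.6 CPM, and in endothelium between 5.35 and 12.9 CPM.

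Acadl, Acaa1a and Eci2 stayed near sham in this gate, although 32 of the 33 members past the filter had a day 7 log2 ratio below 0. Acadl stood at 176, 178, 171 and 162 CPM, Acaa1a at 115, 107, 113 and 122 CPM and Eci2 at 59.0, 70.5, 65.6 and 66.5 CPM. Acadl and Acadvl, which act on overlapping chain lengths, thus differed in the other tubule gate, with log2 ratios at day 7 of -0.04 (-0.28 to 0.19) and -1.16 (-1.41 to -0.91). Acaa2 stood at 151, 106, 89.0 and 112 CPM, a log2 ratio at day 7 of -0.76 (-1.03 to -0.48), short of 2-fold.

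Cpt1a and Ppargc1a, taken from the lower members, were also read in separate segments, without carry-over subtracted. In the loop of Henle gate (185, 258, 134 and 192 cells), Cpt1a stood at 293, 132, 112 and 165 CPM and Ppargc1a at 418, 162, 128 and 268 CPM. In principal cells (66, 82, 120 and 61 cells), Cpt1a stood at 142, 61.6, 46.5 and 97.6 CPM and Ppargc1a at 280, 93.7, 119 and 120 CPM. In intercalated cells (45, 131, 132 and 110 cells), they stood at 96.1, 47.4, 40.8 and 62.8 CPM and at 273, 189, 158 and 230.1 CPM. In each of the 3 segments every library after sham was below sham for both genes. Etfa was highest in intercalated cells, at 692, 286, 236 and 394 CPM, against 371, 212, 138 and 184 CPM in the loop of Henle. Weighting the segment gates equally, the distal convoluted gate included, gave a members' median of -1.06 at day 7, beside -1.03 for all cells.

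**Figure D5:**
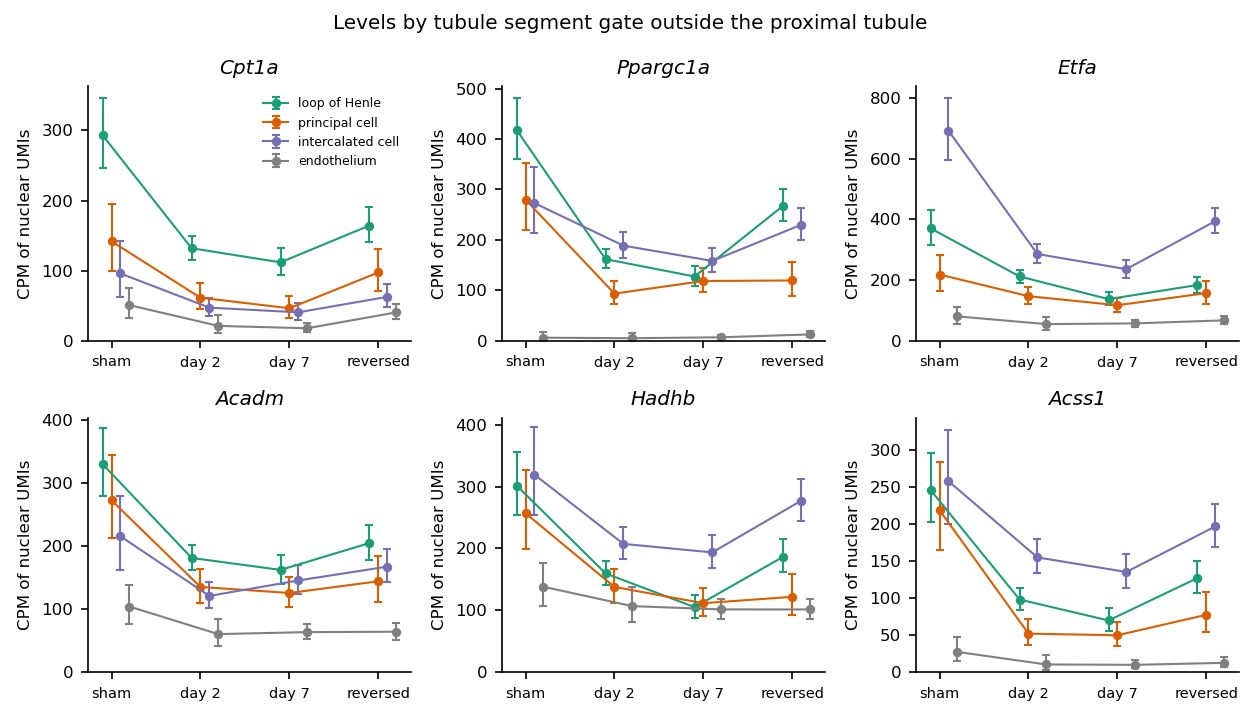
CPM of nuclear UMIs of 6 members in the loop of Henle, principal cell and intercalated cell gates, with endothelium for comparison, in each library, with 95% Poisson intervals. Cpt1a, Ppargc1a and Acss1 are highest in sham in all 3 segments and Etfa is highest in intercalated cells.

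The promoters of all members with a reference window, whatever their levels, were searched for binding motifs of Ppara and of the oestrogen-related receptors, which are known partners of Ppargc1a. RefSeq promoter windows (GRCm38.p6, 250 bases before to 50 after a start) were at hand for 31 of the 35 members. On both strands, the AGGTCA core in direct repeat with 1 base between the copies, the element of Ppara and its partner, was in 0 of 33 member windows and in 0.0396% of all 32851 windows. TCAAGGTCA, the element of the oestrogen-related receptors, was in 0 member windows and in 0.423% of all. The AGGTCA core alone, which is part of both, was in 6 member windows (18.2%) and in 16.3% of all. These figures describe exact letters in a short window alone. The direct repeat and TCAAGGTCA are so rare over all windows that 0 in 33 member windows says little about the members. The windows below are those of the members that held the core and were also past 2-fold below sham at day 7 in the other tubule gate, with and without carry-over subtracted. They are printed 5′ to 3′ on the gene's strand, with the core or its complement TGACCT in capitals.
Cpt1a (chr19:3323051-3323350, plus strand): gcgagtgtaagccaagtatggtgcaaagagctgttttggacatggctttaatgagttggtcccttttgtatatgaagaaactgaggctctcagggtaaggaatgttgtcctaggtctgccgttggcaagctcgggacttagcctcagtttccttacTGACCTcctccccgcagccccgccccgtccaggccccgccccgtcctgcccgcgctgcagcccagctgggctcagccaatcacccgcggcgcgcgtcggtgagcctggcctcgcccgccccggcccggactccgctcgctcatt
Acadvl (chr11:70015379-70015678, minus strand): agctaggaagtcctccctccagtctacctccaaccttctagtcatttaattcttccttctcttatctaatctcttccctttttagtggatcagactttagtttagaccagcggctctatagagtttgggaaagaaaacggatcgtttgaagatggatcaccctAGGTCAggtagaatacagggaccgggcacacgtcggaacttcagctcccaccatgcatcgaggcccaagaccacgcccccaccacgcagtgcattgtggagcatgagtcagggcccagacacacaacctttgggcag
Echs1 (chr7:140116372-140116671, minus strand): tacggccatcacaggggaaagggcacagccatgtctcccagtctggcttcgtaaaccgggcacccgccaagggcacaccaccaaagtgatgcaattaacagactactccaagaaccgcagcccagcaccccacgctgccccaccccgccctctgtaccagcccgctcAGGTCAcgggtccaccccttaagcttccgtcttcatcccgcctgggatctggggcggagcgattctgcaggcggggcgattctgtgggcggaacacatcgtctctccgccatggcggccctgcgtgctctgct
The core lies 94, 87 and 83 bases before the start in these windows, in that order.

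Within each library the members also set the gates apart. In sham 7 members were higher and 3 lower by 2-fold in the proximal tubule than in the other tubule gate, against 10.2% and 30.1% of all genes. At day 7, 17 were higher and 2 lower, against 11.5% and 15.2%. At day 2 there were 13 higher and 1 lower, against 11.2% and 17.8%, and after reversal 13 and 1, against 10.6% and 22.9%. Ppargc1a was among the lower members in both libraries, with 59.0 against 333 CPM in sham and 52.9 against 137 CPM at day 7. Hadha and Hadhb were lower in sham, with 76.5 against 161 CPM and 127 against 292 CPM. At day 7 Hadha was at 83.2 against 95.5 CPM and Hadhb at 106 against 133 CPM. Acss1 was at 190 against 253 CPM in sham and at 23.5 against 86.1 CPM at day 7, past 2-fold at day 7 alone.

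Outside the tubule the members' sum was lower in each library. It was 2689, 1860, 1636 and 1986 CPM in endothelium and 2251, 1596, 1462 and 1656 CPM in phagocytes, which include carried-over molecules. Acadl stood between 80.2 and 91.5 CPM in endothelium, and Cpt1a between 18.04 and 51.1 CPM.

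A wider list of 107 lipid oxidation, peroxisome, ketone body, lipid storage and lipid synthesis genes, none of them members, was read in the same way, with 89 past the filter in each gate. In the proximal tubule gate 4 were higher and 7 lower than sham at day 2, 6 and 4 at day 7, and 2 and 0 after reversal, where all genes had 6% and 2.34%, 13.5% and 3.48%, and 5.48% and 0.139%. The other tubule gate had 3 higher and 27 lower at day 2, 2 and 36 at day 7, and 2 and 15 after reversal, where all genes had 4.88% and 6.42%, 6.99% and 8.51%, and 6.48% and 2.9%. Carry-over was not subtracted for these counts, and its part in them was not tested. The list's median at day 7 was -0.23 in the proximal tubule gate and -0.84 in the other tubule gate, beside 0.19 and -0.07 over all genes.

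Among the largest day 7 increases of that list in the proximal tubule gate were Fabp4, Acot1, Angptl4 and Plin2. Acot1, a cytosolic thioesterase with close paralogs, stood at 26.8, 91.3, 134 and 54.9 CPM. Angptl4, an inhibitor of lipoprotein lipase, stood at 10.8, 22.4, 48.0 and 16.0 CPM. Plin2, which coats lipid droplets, stood at 52.1, 119, 136 and 57.8 CPM. All of these were highest at day 7. In S1-like cells alone Acot1 stood at 15.1, 80.9, 87.0 and 49.6 CPM and Plin2 at 49.4, 85.2, 104 and 57.4 CPM. Fabp4, a fatty acid binding protein of fat cells and endothelium, stood at 7.69, 23.3, 81.3 and 29.1 CPM, beside 2100, 2090, 4885 and 2422 CPM in endothelium.

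The largest day 7 decreases there were Ppard, a relative of Ppara, at 30.6, 4.39, 6.86 and 27.3 CPM, Pdk2, a relative of Pdk4, at 116, 69.4, 45.0 and 83.8 CPM, and Fabp3, a fatty acid binding protein, at 171, 231, 70.5 and 161 CPM. Oxct1, which begins the use of ketone bodies, stood at 646, 343, 296 and 638 CPM, low in both obstructed libraries. Pex5, the import receptor of peroxisomes, stood at 44.1, 31.6, 21.5 and 38.6 CPM, just inside 2-fold. From day 7 to the reversed library, Ppard, Fabp3 and Oxct1 were higher by 2-fold, and Angptl4, Fabp4, Acot1 and Plin2 lower. Acox3, a peroxisomal oxidase, at 99.4, 62.8, 51.9 and 96.6 CPM, and Pdk2 were next among the increases, short of 2-fold.

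In the other tubule gate the largest day 7 decrease of the list was in Lpl, lipoprotein lipase, at 459, 80.5, 37.9 and 147 CPM, beside 428, 330, 147 and 146 CPM in endothelium. Acot3, a peroxisomal thioesterase, stood at 35.9, 7.47, 2.69 and 16.5 CPM, above its 7.21 CPM in the proximal tubule gate of sham. Dao, Pecr and Hao2 had 33.2, 68.2 and 45.1 CPM in sham and 3.23, 11.0 and 7.26 at day 7, but 388, 624 and 285 CPM in the proximal tubule gate of sham. The carry-over share was highest in sham and lowest at day 7 too, and its part in these values was not tested. The largest increases were in Fabp4, at 3.69, 12.96, 65.1 and 22.5 CPM, and Angptl4, at 3.69, 26.4, 9.68 and 14.3 CPM, the latter with an interval at day 7 of -0.08 to 2.50. Acot9, Elovl6 and Plin2 followed, with log2 ratios of 0.83, 0.74 and 0.61. From day 7 to the reversed library Acot3, Lpl, Dao, Hao2 and Acsl3 had the largest increases, with log2 ratios from 1.39 to 2.24, and Fabp4 the largest decrease, of -1.49. Acot9, Elovl6, Pex13 and Crot followed with log2 ratios between -0.54 and -0.20.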

How the data were processed

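Single cells of mouse kidney were measured with droplet 3′ libraries. The authors deposited whole-number UMI counts per gene and barcode, not normalized. Cell Ranger, STAR and GRCm38 (mm10) are named in the submitters' processing notes without versions or roles. The 35 members and all gene lists were chosen with earlier results of these data known. Barcodes needed 200 detected genes and a mitochondrial share of UMIs no higher than 50%, and the highest Scrublet doublet scores were removed at 0.8% per 1000 cells (184, 47, 155 and 91 cells), leaving 3749, 2160, 4292 and 3145 cells of 5938, 2739, 4504 and 3695 barcodes in sham, day 2, day 7 and reversed libraries with 18649637, 19689924, 30462683 and 22943957 UMIs.

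Each marker's UMIs per 10000 nuclear UMIs were divided by their 99.5th percentile and capped at 1. A cell joined the class of highest mean if at least 3 markers were detected and the mean led other kinds by 1.25 times; 136, 245, 332 and 234 cells joined none. This scoring replaced a first one after cells had been seen, since phagocyte RNA drew tubule cells into another class; member values were not consulted. Counts were summed per gate and scaled to CPM without the 13 mitochondrially encoded genes. Log2 ratios used a pseudocount of 1 CPM, for genes with a mean of at least 10 CPM over the 4 libraries, and 2-fold was the threshold. Level intervals are exact Poisson and ratio intervals exact conditional binomial, at 95%; PCR and pooling of mice are not covered. Carry-over into other gates was taken from 12 proximal tubule genes. The scripts were tested on simulated data. Named genes are all members and, of the wider list, the 5 largest increases and decreases at day 7 against sham and after reversal against day 7, except 1 gene that is not reported here. Motifs were searched in RefSeq promoter windows. R 4.3.3 with edgeR 4.0.16 (TMM) and DESeq2 1.42.0 (size factors), and Python 3.11.15 with scanpy 1.11.5, numpy 2.4.6, scipy 1.17.1 and pandas 2.3.3, were used. Alternatives were other scalings, filters, pseudocounts, folds, gates and cell weights.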

Additional observations from a re-analysis of the deposited data

How the results depend on the processing

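Of 608 values recomputed under alternatives, 495 stayed within 1.5 times the reported count or within the spread used. Another 113 moved, and 0 changed the direction of a called value. A members' median that stayed within the spread could still change sign. In the proximal tubule gate, that of day 7 against day 2 was -0.16 with TMM, from 0.07. The cause of each shift was not tested. No paired analysis was possible because each condition had 1 library. Each reported value follows after "from" where it is not given above. The alternative of S1-like cells alone was chosen after seeing the data. Brackets after a number of members or its setting hold the share of all genes called in that direction at that setting.

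The number of wider-list genes past 2-fold in the proximal tubule gate at day 2 against sham was 7 with a 50 CPM filter and 19 with at most 20% mitochondrial UMIs, from 11. At day 7 against sham it was 20 with TMM or DESeq2 and 5 with a 50 CPM filter, from 10. After reversal against sham it was 1 with TMM or DESeq2 or a pseudocount of 10 or a 50 CPM filter or equal cell weights or a clear-lead gate or a transport-gene gate, from 2. For day 7 against day 2 it was 4 with TMM, 5 with DESeq2 or a 50 CPM filter and 13 with equal cell weights or a clear-lead gate, from 8. After reversal against day 7 it was 4 with a 50 CPM filter and 13 with equal cell weights, from 8. The number of lower members in the proximal tubule gate at day 7 against sham was 5 with TMM (9.1%) or S1-like cells (6.05%). It was 6 with DESeq2 (9.23%) or a 1.5-fold threshold (11%), from 3 (3.48%). At day 7 against day 2 it was 2 with a 1.5-fold threshold (6.25%), from 1 (1.79%). After reversal against day 7 it was 0 with TMM (3.07%), DESeq2 (3.3%), a pseudocount of 10 (2.27%), a 50 CPM filter (2.95%) or S1-like cells (7.41%). It was 2 with no filter (6.99%) or a clear-lead gate (4.71%). It was 3 with equal cell weights (4.99%) and 7 with a 1.5-fold threshold (13.4%), from 1 (4.2%). The number of higher members in the proximal tubule gate at day 7 against sham was 0 with TMM (7.65%) or DESeq2 (7.61%). It was 1 with a 50 CPM filter (7.98%), at most 20% mitochondrial UMIs (11.1%) or S1-like cells (17.7%). It was 7 with a 1.5-fold threshold (28%), from 3 (13.5%). After reversal against sham it was 1 with a 1.5-fold threshold (14.8%), from 0 (5.48%). For day 7 against day 2 it was 7 with a 1.5-fold threshold (18.6%) and 1 with S1-like cells (9.3%), from 4 (6.27%). After reversal against day 7 it was 2 with CPM of all UMIs (1.39%), at most 20% mitochondrial UMIs (3.95%) or equal cell weights (2.83%). The reported number was 4 (2.44%). The members' median log2 ratio in the proximal tubule gate at day 7 against sham was 0.18 with CPM of all UMIs and -0.45 with TMM or DESeq2, from -0.11. After reversal against sham it was -0.30 with TMM, -0.35 with DESeq2 and -0.29 with at most 20% mitochondrial UMIs, from -0.11. The number of lower members in the other tubule gate at day 2 against sham was 5 with CPM of all UMIs (3.27%) or carry-over subtraction (6.55%). It was 21 with a 1.5-fold threshold (19.8%), from 9 (6.42%). At day 7 against sham it was 6 with CPM of all UMIs (4.08%) and 8 with at most 20% mitochondrial UMIs (9.93%). It was 11 with carry-over subtraction (8.32%), from 17 (8.51%). After reversal against sham it was 2 with CPM of all UMIs (1.31%), a pseudocount of 10 (1.32%) or a 50 CPM filter (2.46%). It was 0 with carry-over subtraction (2.88%) and 14 with a 1.5-fold threshold (11.5%), from 4 (2.9%). For day 7 against day 2 it was 1 with CPM of all UMIs (0.715%), at most 20% mitochondrial UMIs (1.03%) or carry-over subtraction (1.02%). It was 0 with a pseudocount of 10 (0.331%) or a 50 CPM filter (0.881%) and 4 with a 1.5-fold threshold (4.58%), from 2 (1.2%). The number of wider-list genes past 2-fold in the other tubule gate at day 2 against sham was 10 with a 50 CPM filter, from 30. At day 7 against sham it was 14 with a 50 CPM filter, from 38. After reversal against sham it was 7 with CPM of all UMIs and 6 with a pseudocount of 10 or a 50 CPM filter, from 17. For day 7 against day 2 it was 3 with a pseudocount of 10 and 2 with a 50 CPM filter, from 9. After reversal against day 7 it was 6 with a pseudocount of 10, 3 with a 50 CPM filter and 7 with at most 20% mitochondrial UMIs, from 12. The members' median log2 ratio in the other tubule gate at day 7 against sham was -0.54 with CPM of all UMIs, from -1.03. After reversal against day 7 it was 0.27 with at most 20% mitochondrial UMIs, from 0.52. The number of higher members in the other tubule gate at day 7 against day 2 was 1 with no filter (5.47%) or a 1.5-fold threshold (9.82%). The reported number was 0 (2.48%). After reversal against day 7 it was 1 with a pseudocount of 10 (1.05%) or carry-over subtraction (1.83%) and 2 with a 50 CPM filter (1.76%). It was 7 with equal cell weights (3.16%) and 12 with a 1.5-fold threshold (7.58%), from 4 (2.42%). The members' summed CPM in the proximal tubule gate in sham was 10500 with at most 20% mitochondrial UMIs. At day 2 it was 7449 with at most 20% mitochondrial UMIs and 7812 with a clear-lead gate. At day 7 it was 8140 with at most 20% mitochondrial UMIs, 10110 with equal cell weights, 10090 with a clear-lead gate and 8983 with a transport-gene gate. After reversal it was 8998 with at most 20% mitochondrial UMIs, 11090 with equal cell weights and 11070 with a clear-lead gate. The members' summed CPM in the other tubule gate in sham was 4897 with at most 20% mitochondrial UMIs, 5683 with doublets kept and 5711 with equal cell weights. At day 2 it was 2940 with at most 20% mitochondrial UMIs and 3258 with equal cell weights. At day 7 it was 2746 with a clear-lead gate. After reversal it was 3192 with at most 20% mitochondrial UMIs and 3901 with equal cell weights. Without thinning, the share of proximal tubule cells with a UMI was 41.7, 34.4, 35.6 and 57.5% for Acaa2 and 28.0, 22.5, 9.57 and 38.2% for Acss1.

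At day 7 against sham the scaling moved the median log2 ratio of all genes by 0.28 with CPM of all UMIs, -0.33 with TMM and -0.34 with DESeq2 in proximal tubule cells, and by 0.36, 0.10 and 0.07 in other tubule cells. Weighting S1-like and S3-like cells equally at day 2 rests on 8 S3-like cells, and took Acaa2 inside 2-fold there, with 5 members lower and 2 higher of 35, from 4 and 0 of 34, beside 7.66% and 10.4% of all genes. At day 7 the proximal tubule gate held 188 cells, with 1021089 nuclear UMIs, so a member at the filter of 10 CPM rests on few molecules there. The spread between mice is unknown in every comparison.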
